A study of Mus musculus with 9 samples.

Results

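The genes described here are 38 interferon-stimulated genes, chosen by symbol from the 55335 rows of a gene count table of mouse prelimbic cortex. All 38 were found and all 38 passed the low-count filter that left 21765 genes for testing. They are listed by role as transcription factors and feedback genes, nucleic acid sensors, Ifit proteins, OAS proteins, antiviral effectors, PARP and Deltex proteins, interferon-inducible GTPases and antigen presentation genes. The 3 groups had 3 mice each. R-HNK mice had spared nerve injury (SNI), a partial injury of the sciatic nerve used as a model of neuropathic pain, and were given R-HNK, the R form of the ketamine metabolite hydroxynorketamine, at 10 mg/kg. Injured saline mice had the same injury and received saline, and sham mice had the control operation and received saline. Prelimbic tissue, a medial prefrontal area of the mouse, was taken on day 14 from mice of all groups. Strain, sex, age and the number of R-HNK doses are not given in the sources used here. The p-values weigh differences between groups against the spread between these mice.

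Type I interferons bind a receptor made of IFNAR1 and IFNAR2, whose kinases JAK1 and TYK2 phosphorylate STAT proteins, STAT2 among them. A complex that holds STAT2 and IRF9 then binds the interferon-stimulated response element (ISRE) in the promoters of the genes they switch on. Interferon gamma has its own receptor and acts through another element, the gamma-activated site (GAS). In the brain, microglia, astrocytes, endothelium and neurons can all switch on such genes, and a low level is present without infection.

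Some of the members sit side by side in the genome. Coordinates are those of the GRCm38 (mm10) assembly. The 4 Ifit genes lie on chromosome 19, with Ifit1 from 34640871 to 34650009. Gbp2, Gbp3 and Gbp7 lie on chromosome 3, and Parp9, Parp14 and Dtx3l on chromosome 16. Psmb9 (34181987 to 34187764) and Tap1 (34187553 to 34197225) lie head to head on chromosome 17, with Psmb8 beside them, and their exons overlap by 212 bases. In all, 33 of the 38 share a chromosome with another member, and 15 have an exon that overlaps another annotated gene. Sharing a chromosome does not mean lying close: Ifih1, B2m and Zbp1 are far apart on chromosome 2. The shares over all genes were not computed, so neither count is read as a trait of the members.

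RefSeq promoters on GRCm38.p6, from 250 bases before to 50 bases after the start, were on hand for 29 of the 38 members. The core of the ISRE was searched in the bases before the start as GAAANNGAAA or, on the other strand, TTTCNNTTTC. It was present in 15 of 29 members (51.7%), against 3.46% of the 27025 genes of the promoter table and 2.98% of its 32851 promoters. The core of the GAS, TTCNNNGAA, which reads alike on both strands and can overlap the other core, was present in 6 of 29 members (20.7%), against 8.13% of genes and 7.02% of promoters. A match of letters is a description and was not tested for binding.

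Windows of 50 bases are shown for 8 of the 15 members with the ISRE core, to show how closely the cores are packed. Members without the core have no window, among them Irf7, Irf9, Ifit2, Oasl2, Tap1 and Psmb9, which are described below. Each runs 5′ to 3′ on the strand of its gene, and capitals mark every stretch that matches the ISRE core. The windows are chr19:34640784-34640833 (plus strand) for Ifit1, chr19:34583387-34583436 (plus) for Ifit3, chr19:34607783-34607832 (plus) for Ifit3b, chr4:156200855-156200904 (minus) for Isg15, chr7:104465200-104465249 (minus) for Trim30a, chr8:71537567-71537616 (minus) for Bst2, chr3:142559985-142560034 (plus) for Gbp3 and chr2:122147528-122147577 (plus) for B2m.
Ifit1: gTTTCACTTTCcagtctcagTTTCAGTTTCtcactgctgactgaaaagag
Ifit3: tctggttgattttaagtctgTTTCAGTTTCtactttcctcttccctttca
Ifit3b: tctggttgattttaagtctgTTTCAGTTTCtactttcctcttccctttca
Isg15: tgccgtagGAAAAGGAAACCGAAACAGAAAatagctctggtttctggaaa
Trim30a: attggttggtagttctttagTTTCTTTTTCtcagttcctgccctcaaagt
Bst2: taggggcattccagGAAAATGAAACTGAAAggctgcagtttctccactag
Gbp3: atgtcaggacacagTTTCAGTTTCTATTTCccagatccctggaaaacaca
B2m: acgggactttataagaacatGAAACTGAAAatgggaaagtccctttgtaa
Ifit1 held 2 separate matches, Isg15 held 3 in a row of which each overlaps the next, and Bst2 and Gbp3 held 2 that overlap. Ifit3 and Ifit3b held 2 each, of which the window shows 1. For Gbp3 and Trim30a the core was in 1 of the 2 promoters listed. The windows of Ifit3 and Ifit3b are the same letter for letter, and their promoters shared 188 of 218 bases (86.2%) when laid side by side without gaps. The promoters of Psmb9 and Tap1 overlap each other, and neither held the core.

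Libraries held 53624337 to 73586375 counts, and levels are given as CPM, counts scaled to the adjusted total of their library. The excitatory neuron markers of cortex (6 genes) summed to 2239 to 2410 CPM in R-HNK mice, 2614 to 2688 CPM in injured saline mice and 1858 to 2472 CPM in sham mice. Genes that mark the medium spiny neurons of the striatum, a region next to the sampled cortex, were raised in 4 libraries, namely R-HNK replicates 1 and 3 and sham replicates 2 and 3. These 11 genes summed to 691, 280.5 and 980.3 CPM in R-HNK replicates 1, 2 and 3, to 295, 253 and 260.4 CPM in injured saline replicates 1, 2 and 3, and to 292, 1550.2 and 1459 CPM in sham replicates 1, 2 and 3. In bulk tissue, fewer cells of a type and less RNA per cell cannot be told apart. The list is therefore also described after adjusting for a score of the striatal markers, and after dropping these 4 libraries, which leaves 1 R-HNK, 3 injured saline and 1 sham library and takes the spread from the injured saline mice.

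Most members were low in this tissue. Over the 9 libraries, 5 members averaged under 1 CPM, 25 between 1 and 5 CPM, 3 between 5 and 10 CPM and 5 at least 10 CPM, and single counts ran from 0 to 3623. Per kilobase of exon, B2m, the light chain of MHC class I, was highest at 54.7 CPM, followed by Ifi27, a small membrane protein, at 15.3 CPM. Stat2, Lgals3bp and Ifit3 followed at 4.37, 3.72 and 3.28 CPM per kilobase, and Zbp1 was lowest at 0.0628 CPM per kilobase. Of the 37 neighbouring pairs in this order, 35 overlapped in their library values, and only B2m stood apart from Ifi27 and Ifi27 from Stat2.

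**Figure D1:**
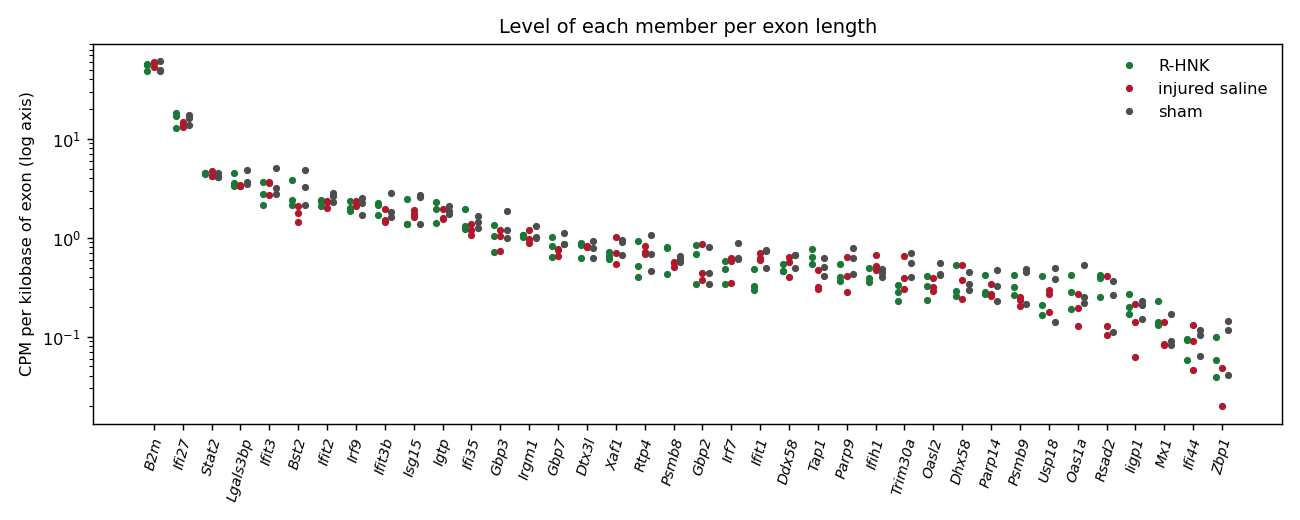
Level of each of the 38 members in CPM per kilobase of annotated exon (log axis), ordered by the mean over 9 libraries. Each point is 1 library, with R-HNK left, injured saline in the middle and sham right of each position; B2m is highest and Zbp1 lowest, and the injured saline library in which Zbp1 was at 0 cannot be drawn on a log axis.

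Spread between libraries differed widely from member to member. The highest level was 1.15 times the lowest for Stat2 and 1.25 times for B2m. For the 37 members with counts in every library this ratio had a median of 2.21 and reached 4.30 for Iigp1, an interferon-inducible GTPase. A few near copies make the split of reads uncertain: in BLAST alignments of transcripts, Ifit3 and Ifit3b were 97.8% identical over 1700 bases, Oas1a and Oas1g 97.6% over 1861, Isg15 and AC151275.1 95.2% over 482, Mx1 and Mx2 94.8% over 921, and Trim30a and Trim30d 90.1% over 1719. Gbp7 and Gm43802, which overlap on the same strand, shared 637 bases at 100% identity. The sources used here do not say whether reads were counted by strand, so reads in the exons that Psmb9 shares with Tap1, and Parp9 with Dtx3l (458 bases), may be assigned to either.

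**Figure D2:**
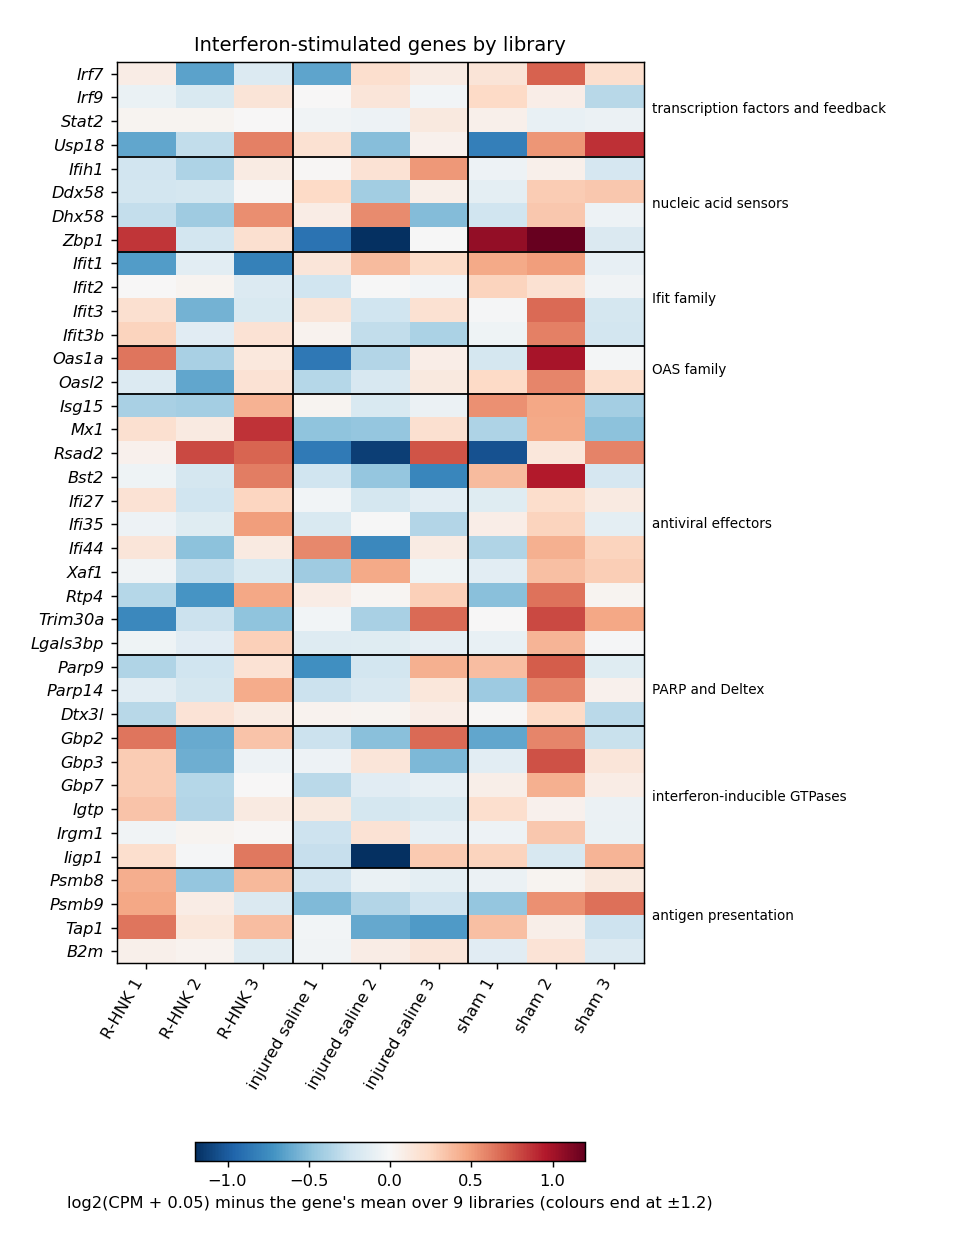
Level of each member in each of the 9 libraries, as log2(CPM + 0.05) minus that gene's mean over the libraries (red higher, blue lower), grouped by role. Columns run from R-HNK through injured saline to sham; the column of sham replicate 2 is red for most members, and R-HNK replicate 2 is blue for many.

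No member passed the test between injured saline and sham mice. In edgeR's quasi-likelihood test 0 of 38 passed an adjusted p of 0.05, against 233 of 21765 genes (1.07%). DESeq2, and limma-voom with quality weights for the libraries, also called 0 members, against 5.44% and 5.21% of all genes. At an unadjusted p under 0.05, 2 members had lower estimates, Bst2 and Zbp1, and 0 had higher ones, beside 1974 lower (9.07%) and 1637 higher (7.52%) among all genes. The fitted log2 fold changes had a median of -0.21, with 31 of 38 below 0, while all genes tested had a median of -0.02. The 95% interval lay within 2-fold in either direction for 22 of 38 members, and its median half-width was 0.59 on the log2 scale, against 0.37 over all genes.

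Nor did any member pass between R-HNK and injured saline mice. In edgeR 0 of 38 passed, against 26 genes in all (0.119%), and 0 passed in DESeq2 (all genes 0.643%) or limma-voom (0.225%). Tap1 had the 1 higher and Ifit1 the 1 lower estimate at an unadjusted p under 0.05, beside 915 higher (4.2%) and 710 lower (3.26%) genes in all. The median was 0.05, with 22 members above 0 and 16 below, and that of all genes was 0.01. Intervals lay within 2-fold for 24 members.

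R-HNK against sham mice gave 0 of 38 in edgeR, against 1 gene in all (0.00459%), and 0 in DESeq2 (all genes 0.0459%) and limma-voom (0%). Ifit1 and Trim30a had lower estimates at an unadjusted p under 0.05 and 0 members had higher ones, beside 408 lower (1.87%) and 361 higher (1.66%) among all genes. The median was -0.14, with 28 members below 0 and 10 above, and that of all genes was -0.01. Intervals lay within 2-fold for 23 members. The comparisons share mice, since each group stands in 2 of them.

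**Figure D3:**
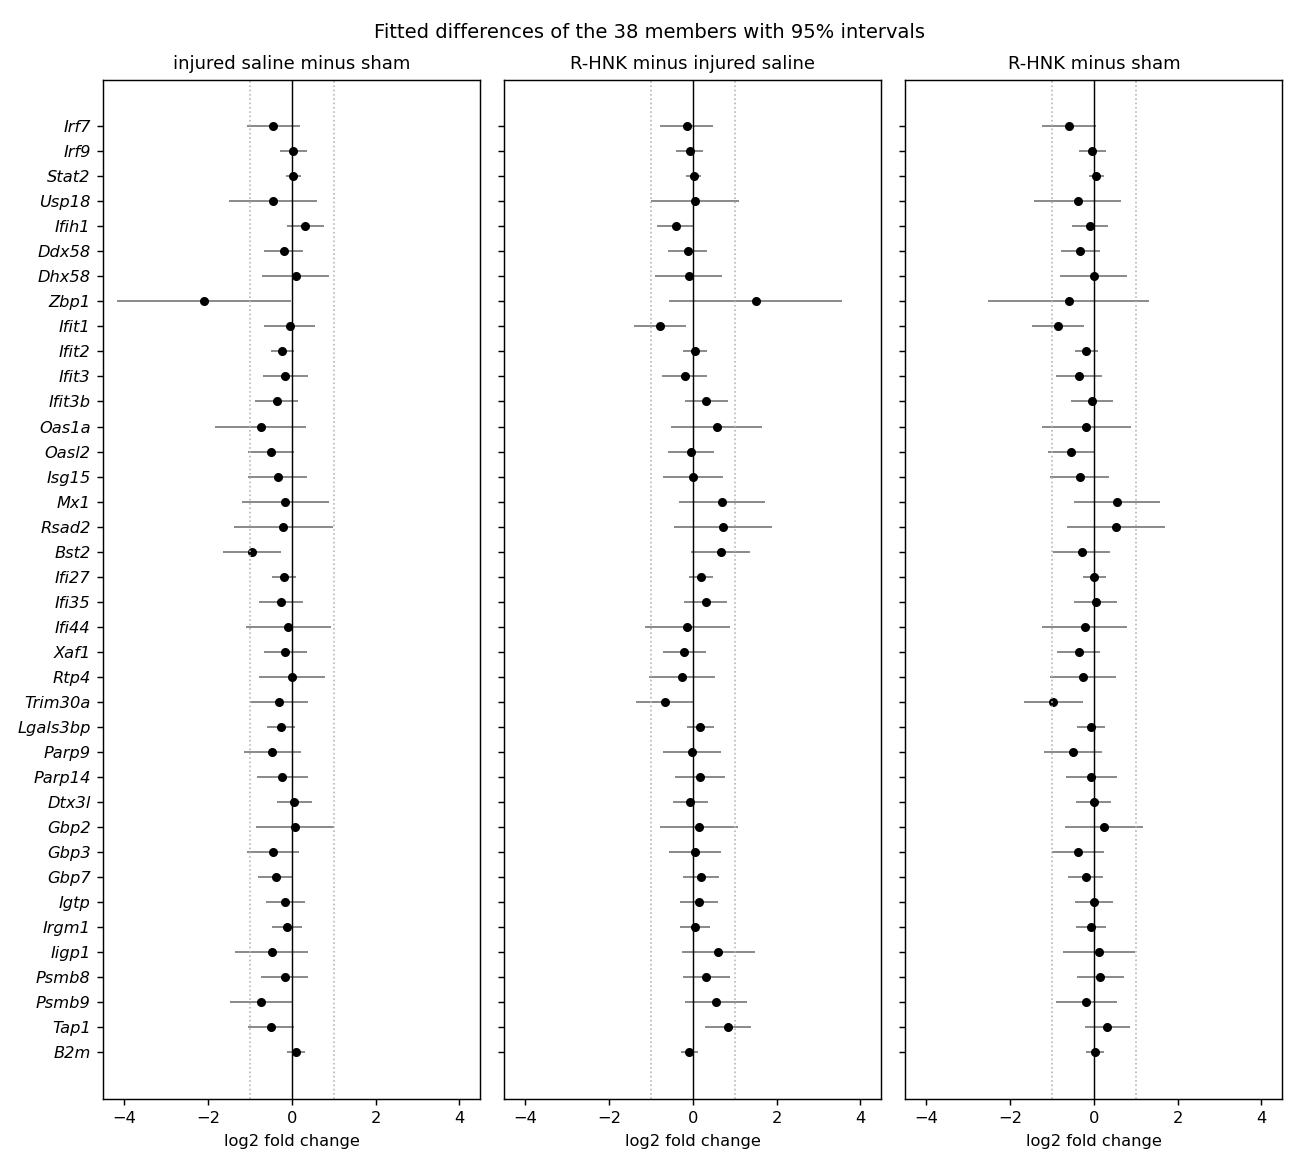
Fitted log2 fold change of each member (points) with its 95% interval (lines) for injured saline minus sham, R-HNK minus injured saline and R-HNK minus sham; dotted lines mark 2-fold. Points lie left of 0 for 31 of 38 members in the first panel and 28 of 38 in the third, and for 16 of 38 in the middle one.

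Some members had groups that did not overlap. Between injured saline and sham mice, 5 of 38 members (13.2%) had all injured saline values below all sham values (Oasl2, Bst2, Lgals3bp, Gbp7 and Psmb8), where 10.9% of all genes did, and 0 had the reverse, where 10.9% of all genes did. For R-HNK against injured saline mice, Bst2, Psmb9 and Tap1 (7.89%) were higher without overlap, against 7.15% of all genes, and Ifit1 (2.63%) was lower, against 6.59%. For R-HNK against sham mice 4 members (10.5%) were lower, against 4.42% of all genes, namely Irf7, Ifit1, Oasl2 and Trim30a, and 0 were higher, against 4.43%. These shares describe members that were chosen with earlier results known, and were not tested against the other genes.

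A single sham library held many of the highest values. Sham replicate 2 had the highest level of 18 of 38 members (47.4%), while it was highest for 12.4% of all genes tested. R-HNK replicate 2 had the lowest level of 10 members (26.3%), against 8.23% of all genes. The member score, the mean of the members' log2 CPM relative to the 9 libraries, was 0.04, -0.22 and 0.18 in R-HNK replicates 1, 2 and 3, -0.18, -0.28 and 0.03 in injured saline replicates 1, 2 and 3, and -0.03, 0.44 and 0.03 in sham replicates 1, 2 and 3. The groups overlapped in this score. Summed over the members, the level was 187 to 212 CPM in R-HNK mice, 191 to 207 CPM in injured saline mice and 195 to 243 CPM in sham mice, with B2m taking the largest share.

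Without sham replicate 2 the median of the members was -0.12 for injured saline against sham and -0.01 for R-HNK against sham. Without R-HNK replicate 2 it was 0.17 for R-HNK against injured saline and -0.02 for R-HNK against sham. After adjusting for the striatal score the medians were -0.03 for injured saline against sham, -0.02 for R-HNK against injured saline and -0.03 for R-HNK against sham. Dropping the 4 striatal-raised libraries gave -0.02, -0.16 and -0.22 in the same order of comparisons. Striatal scores were 0.97, -1.57 and 1.56 in R-HNK replicates 1, 2 and 3. They were -1.42, -1.39 and -1.47 in injured saline replicates 1, 2 and 3, and -1.13, 2.24 and 2.21 in sham replicates 1, 2 and 3. Member scores in the 4 striatal-raised libraries were 0.04 and 0.18 (R-HNK replicates 1 and 3) and 0.44 and 0.03 (sham replicates 2 and 3). In the others they were -0.22 in R-HNK replicate 2, -0.18, -0.28 and 0.03 in injured saline replicates 1, 2 and 3, and -0.03 in sham replicate 1. The part of striatal content in the single members' levels was not tested.

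Markers of other cells differed between libraries too. All 12 microglia markers were tested and none passed in the main edgeR fit or DESeq2. Of these, 11 had estimates below 0 for injured saline against sham (median -0.12). For R-HNK against injured saline 9 were above 0 (median 0.10). Cx3cr1 was called lower in injured saline than in sham mice by limma-voom, and by edgeR without sham replicate 1. The latter setting leaves only striatal-raised sham libraries. The 12 markers summed to 399.7 to 481 CPM in R-HNK mice, 380.4 to 438 CPM in injured saline mice and 402 to 487 CPM in sham mice. The 10 endothelial markers summed to 337 to 369 CPM in R-HNK mice, 337 to 354 CPM in injured saline mice and 285 to 388 CPM in sham mice. Markers of monocytes and border macrophages, of which 7 of 8 were tested, were scarce, at 3.40 to 3.92 CPM in R-HNK mice, 2.60 to 2.78 CPM in injured saline mice and 3.55 to 5.80 CPM in sham mice. These sums lay below both other groups in every injured saline library. Of the meningeal fibroblast markers 3 of 8 passed as lower in injured saline than in sham mice, beside 121 of all 21765 genes. These 8 markers summed to 37.2 to 52.1 CPM in R-HNK mice, 28.4 to 32.3 CPM in injured saline mice and 44.5 to 67.2 CPM in sham mice. The 5 red cell markers summed to 541 to 719 CPM in R-HNK mice, 282 to 399 CPM in injured saline mice and 352 to 537 CPM in sham mice. All 5 were higher in R-HNK than in injured saline mice without overlap, where 7.15% of all genes were. None of them passed in edgeR (median 0.96 on the log2 scale, smallest adjusted p 0.127). The 7 T cell markers, of which 3 were tested, summed to 7.04, 2.52 and 9.48 CPM in R-HNK mice, 2.33, 1.88 and 2.42 CPM in injured saline mice and 2.68, 14.7 and 11.5 CPM in sham mice. Most of the high sums was Cd4, at 4.70, 0.743 and 8.06 CPM in R-HNK mice, 0.609, 0.517 and 0.979 CPM in injured saline mice and 1.01, 13.3 and 9.59 CPM in sham mice, so it was high in the same 4 libraries as the striatal markers. The receptor genes Cd3d, Cd3e and Cd3g, which define T cells, had 0 to 9 counts per library and were too low to test.

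Glial, mural and neuronal markers differed as well. All 8 oligodendrocyte markers had estimates below 0 for injured saline against sham and above 0 for R-HNK against injured saline, none at an unadjusted p under 0.05, and they summed to 3391 to 6603 CPM in R-HNK mice, 3263 to 4613 CPM in injured saline mice and 3265 to 6829 CPM in sham mice. Of 8 astrocyte markers 7 had estimates below 0 for injured saline against sham, 5 of them at an unadjusted p under 0.05 and 4 without overlap. Of all genes tested, 9.07% were lower at that p and 10.9% were lower without overlap. The astrocyte sums were 3503 to 3916 CPM in R-HNK mice, 3480 to 3700.4 CPM in injured saline mice and 3711 to 4138 CPM in sham mice. All 8 pericyte and smooth muscle markers had estimates below 0 in that comparison, with sums of 172 to 193 CPM in R-HNK mice, 163 to 172 CPM in injured saline mice and 169 to 202 CPM in sham mice. Choroid plexus and ependyma markers, of which 6 of 7 were tested, summed to 6.10 to 10.3 CPM in R-HNK mice, 5.27 to 6.93 CPM in injured saline mice and 6.96 to 18.1 CPM in sham mice. Of the 6 excitatory neuron markers 1 passed as higher in injured saline than in sham mice, beside 112 of all 21765 genes. This was Neurod6, a transcription factor (0.70 ± 0.11 on the log2 scale, SE, adjusted p = 0.00901). Of 7 interneuron markers, 2 were higher and 3 lower in that comparison at an unadjusted p under 0.05 in edgeR, and none passed. Among all genes 7.52% were higher and 9.07% lower at that p. The part of these cells in the members' levels was not tested.

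**Figure D4:**
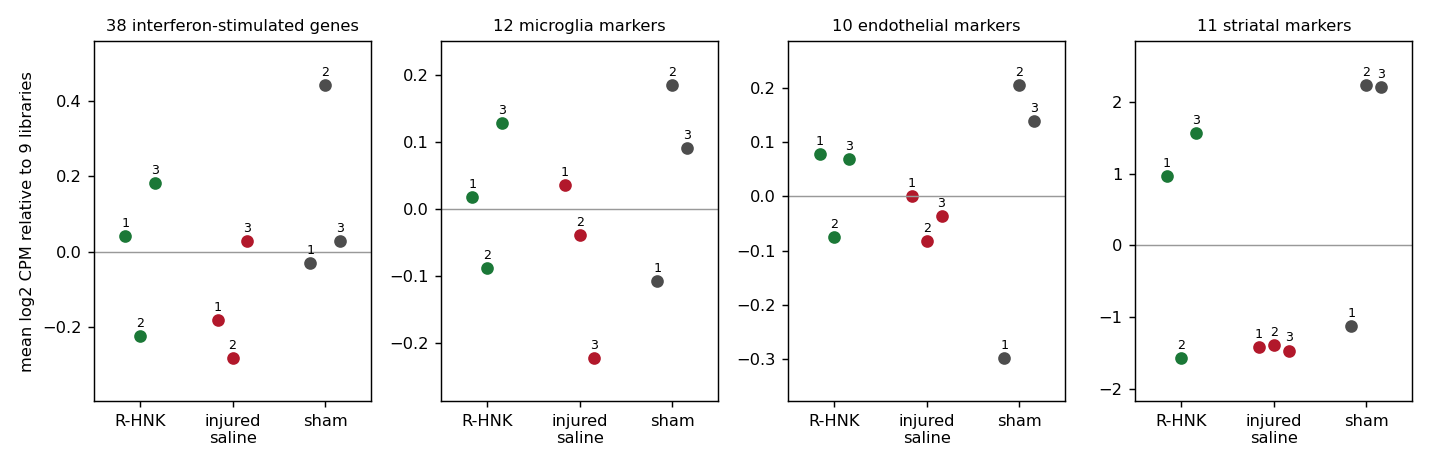
Mean log2 CPM relative to the 9 libraries for the 38 members, 12 microglia markers, 10 endothelial markers and 11 striatal markers; each point is 1 library with its replicate number, and each panel has its own vertical scale. Sham replicate 2 is highest for the members (0.44), microglia (0.18) and endothelium (0.21), and sham replicates 2 and 3 are both high for striatal markers (2.24 and 2.21).

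Of the 4 transcription factors and feedback genes, Stat2 had the narrowest intervals. Stat2, a subunit of the complex that binds the ISRE, measured 26.5, 26.5 and 25.9 CPM in R-HNK mice, 25.1, 24.8 and 28.0 CPM in injured saline mice and 26.9, 24.4 and 24.6 CPM in sham mice. The groups overlapped throughout, and all 3 intervals of Stat2 were narrow, from -0.14 to 0.22 for injured saline against sham, from -0.16 to 0.20 for R-HNK against injured saline and from -0.12 to 0.24 for R-HNK against sham on the log2 scale. Irf9, which directs the complex to DNA, measured 10.8, 10.1 and 12.8 CPM in R-HNK mice, 11.5, 12.7 and 11.2 CPM in injured saline mice and 13.5, 12.1 and 9.08 CPM in sham mice, with estimates of 0.03, -0.07 and -0.04 in the order of the comparisons above. Irf7, the factor that amplifies interferon production and is itself induced by it, measured 2.19, 1.30 and 1.83 CPM in R-HNK mice, 1.30, 2.37 and 2.21 CPM in injured saline mice and 2.29, 3.38 and 2.36 CPM in sham mice. Every R-HNK value of Irf7 lay below every sham value, with an estimate of -0.59 ± 0.29 on the log2 scale (± gives the SE here and below; adjusted p = 1.00). Usp18, a protease that removes ISG15 and blocks the receptor, measured 0.459, 0.588 and 1.14 CPM in R-HNK mice, 0.835, 0.50 and 0.762 CPM in injured saline mice and 0.393, 1.08 and 1.38 CPM in sham mice, so that sham mice spanned the range of both other groups.

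The sensors of foreign nucleic acid include the RNA helicases Ifih1 (MDA5), Ddx58 (RIG-I) and Dhx58 (LGP2) and the Z-form nucleic acid sensor Zbp1. Ifih1 measured 3.21, 2.91 and 4.04 CPM in R-HNK mice, 3.83, 4.27 and 5.46 CPM in injured saline mice and 3.62, 3.95 and 3.27 CPM in sham mice. Its estimate was 0.32 ± 0.20 for injured saline against sham (adjusted p = 0.461) and -0.41 ± 0.20 for R-HNK against injured saline (adjusted p = 0.679), with overlap between the groups in both. Zbp1 was the scarcest member, with 26, 9 and 13 counts in R-HNK mice, 4, 0 and 11 counts in injured saline mice and 24, 29 and 8 counts in sham mice. A count of 0 in injured saline replicate 2 allows up to 0.05 CPM (3 counts, counting error only). Its estimate was -2.10 ± 0.96 for injured saline against sham (adjusted p = 0.295), with a 95% interval from -4.17 to -0.03, and the groups overlapped. The estimate of Zbp1 was -3.29 without injured saline replicate 3 and -1.53 without injured saline replicate 2. Ddx58 ran from 2.82 to 4.73 CPM and Dhx58 from 0.793 to 1.75 CPM over the 9 libraries.

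The Ifit proteins bind viral RNA that lacks the cap of host transcripts and hinder its translation. Ifit1 measured 0.864, 1.28 and 0.781 CPM in R-HNK mice, 1.57, 1.85 and 1.66 CPM in injured saline mice and 1.95, 2.02 and 1.31 CPM in sham mice. All 3 R-HNK values lay below all 6 saline values, by a narrow margin between R-HNK replicate 2 (1.28 CPM) and sham replicate 3 (1.31 CPM). Injured saline and sham mice overlapped. The log2 fold change of Ifit1 was -0.79 ± 0.29 for R-HNK against injured saline (adjusted p = 0.595) and -0.85 ± 0.29 for R-HNK against sham (adjusted p = 1.00), and -0.06 ± 0.28 for injured saline against sham (adjusted p = 0.945). It ranged from -1.04 to -0.40 for R-HNK against injured saline over all settings tried and stayed below 0. Ifit2, its neighbour, was more abundant, at 9.26, 9.49 and 8.24 CPM in R-HNK mice, 7.81, 9.21 and 9.06 CPM in injured saline mice and 11.1, 10.5 and 8.95 CPM in sham mice. Its estimate was 0.05 ± 0.13 for R-HNK against injured saline (adjusted p = 0.957), with a 95% interval from -0.23 to 0.33. Ifit3 ran from 3.75 to 8.93 CPM and Ifit3b from 2.88 to 5.73 CPM, both highest in sham replicate 2, with estimates for R-HNK against injured saline of -0.20 ± 0.25 and 0.32 ± 0.24 and reads that cannot be cleanly parted.

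OAS proteins make a second messenger that switches on RNase L, and OASL proteins are their relatives. Oasl2 measured 2.07, 1.49 and 2.62 CPM in R-HNK mice, 1.83, 2.03 and 2.52 CPM in injured saline mice and 2.75, 3.52 and 2.69 CPM in sham mice. Sham mice lay above both other groups without overlap, while the estimates of -0.49 ± 0.25 for injured saline (adjusted p = 0.360) and -0.54 ± 0.25 for R-HNK (adjusted p = 1.00), each against sham, did not pass. Oas1a measured 0.783, 0.356 and 0.531 CPM in R-HNK mice, 0.243, 0.367 and 0.513 CPM in injured saline mice and 0.410, 1.01 and 0.473 CPM in sham mice. Its estimate of -0.75 ± 0.51 for injured saline against sham (adjusted p = 0.50) came with overlapping groups, and sham replicate 2 stood above the other 8 libraries.

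Of the 11 antiviral effectors, all 11 had estimates below 0 for injured saline against sham, with a median of -0.20, and none passed. They ran from -0.95 to -0.00, the last for Rtp4. Only Isg15, Bst2 and Trim30a of these were followed over the other settings. The estimates of Isg15 and Bst2 stayed below 0, and that of Trim30a reached 0.16 without the 4 striatal-raised libraries. Bst2, the tetherin that holds budding virus at the cell surface, measured 2.17, 1.93 and 3.48 CPM in R-HNK mice, 1.90, 1.62 and 1.29 CPM in injured saline mice and 2.94, 4.40 and 1.95 CPM in sham mice. Injured saline mice lay below both other groups, by a narrow margin from R-HNK replicate 2 and sham replicate 3. The log2 fold change of Bst2 was -0.95 ± 0.32 for injured saline against sham, the smallest adjusted p of any member in that comparison (0.167), and 0.66 ± 0.32 for R-HNK against injured saline (adjusted p = 0.682). The first of these was -0.61 without sham replicate 2, and its adjusted p ran from 0.069 to 0.732 over all settings tried.

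Trim30a, a mouse TRIM protein that dampens Toll-like receptor signalling, measured 0.945, 1.38 and 1.17 CPM in R-HNK mice, 1.62, 1.25 and 2.67 CPM in injured saline mice and 1.66, 2.89 and 2.29 CPM in sham mice. R-HNK mice lay below sham mice without overlap (-0.97 ± 0.32, adjusted p = 1.00) and overlapped injured saline mice (-0.67 ± 0.32, adjusted p = 0.680). With the 4 striatal-raised libraries dropped, the estimate of Trim30a against sham was -0.27. Isg15, a ubiquitin-like protein attached to other proteins and a usual readout of interferon exposure, measured 1.05, 1.04 and 1.87 CPM in R-HNK mice, 1.43, 1.22 and 1.32 CPM in injured saline mice and 2.05, 1.93 and 1.04 CPM in sham mice. Its R-HNK and sham values enclosed the injured saline values, and the R-HNK estimate against injured saline was -0.00 ± 0.33 (adjusted p = 0.999), with a 95% interval from -0.71 to 0.71.

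Among the other effectors, Ifi27 ran from 18.8 to 26.5 CPM and Lgals3bp, a secreted glycoprotein, from 9.41 to 13.9 CPM. Lgals3bp was lower in injured saline than in sham mice without overlap, at -0.25 ± 0.15 (adjusted p = 0.437). The GTPase Mx1, which blocks influenza virus in mice that carry an intact copy, ran from 0.309 to 0.874 CPM, and Rsad2 (viperin), an enzyme that makes an antiviral nucleotide, from 0.450 to 1.84 CPM. Their estimates for R-HNK against injured saline were 0.70 ± 0.48 and 0.72 ± 0.54. Ifi35 ran from 1.85 to 3.37 CPM, Ifi44 from 0.283 to 0.800 CPM, Xaf1, which promotes apoptosis, from 2.56 to 4.75 CPM and Rtp4, a receptor transport protein, from 0.851 to 2.26 CPM, and in each of these the groups overlapped in all 3 comparisons.

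**Figure D5:**
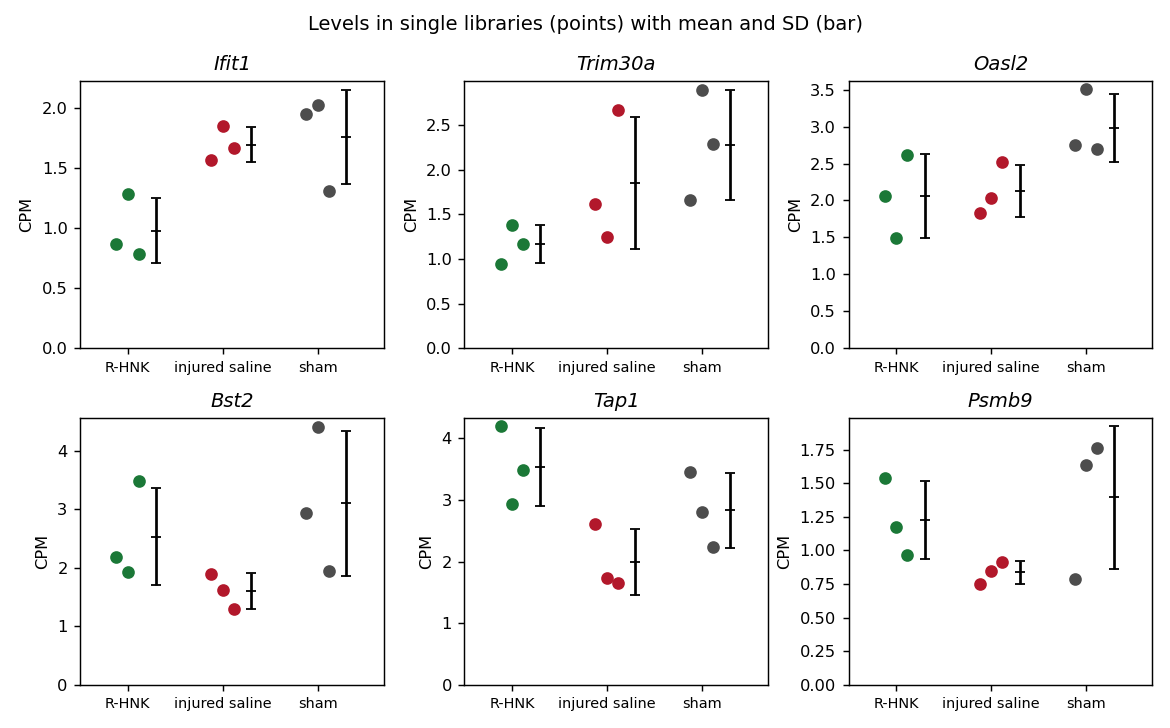
CPM of Ifit1, Trim30a, Oasl2, Bst2, Tap1 and Psmb9 in each library (points), with the mean and SD of each group (bar; 3 mice each). R-HNK values of Ifit1 lie below all 6 saline values, and injured saline values of Bst2 lie below both other groups. Both gaps are narrow, and no difference shown passed the test.

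Parp9, Parp14 and Dtx3l form or join complexes of ADP-ribosylation and ubiquitination that act in the interferon response. Parp9 measured 1.80, 1.95 and 2.62 CPM in R-HNK mice, 1.37, 1.98 and 3.12 CPM in injured saline mice and 3.01, 3.86 and 2.09 CPM in sham mice. Injured saline and sham mice both varied widely and overlapped, and the estimate for injured saline against sham was -0.47 ± 0.32 (adjusted p = 0.502). Parp14 measured 2.65, 2.49 and 3.95 CPM in R-HNK mice, 2.40, 2.52 and 3.17 CPM in injured saline mice and 2.12, 4.37 and 3.00 CPM in sham mice, with sham mice spanning the whole range. Dtx3l, the ubiquitin ligase partner of Parp9, ran from 3.55 to 5.31 CPM, with an estimate of 0.06 ± 0.19 for injured saline against sham.

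The interferon-inducible GTPases guard the cell against microbes that live in vacuoles. All 6 had estimates above 0 for R-HNK against injured saline, with a median of 0.15 and a smallest adjusted p of 0.747. Gbp3 and Gbp7 were the only ones of these followed over the other settings, and the signs of both turned, down to -0.47 and -0.17. In all, 5 of 6 had estimates below 0 for injured saline against sham. Gbp7 measured 5.71, 3.62 and 4.64 CPM in R-HNK mice, 3.69, 4.20 and 4.32 CPM in injured saline mice and 4.84, 6.22 and 4.91 CPM in sham mice. It was lower in injured saline than in sham mice without overlap, at -0.39 ± 0.20 (adjusted p = 0.346). Gbp3 measured 4.40, 2.35 and 3.39 CPM in R-HNK mice, 3.41, 3.93 and 2.42 CPM in injured saline mice and 3.25, 6.08 and 3.93 CPM in sham mice, and its estimate of -0.44 ± 0.29 against sham (adjusted p = 0.479) came with overlap and a single high value in sham replicate 2. Another guanylate-binding protein, Gbp2, ran from 0.855 to 2.18 CPM, and the immunity-related GTPases Igtp, Irgm1 and Iigp1 ran from 2.85 to 4.65 CPM, 5.13 to 7.64 CPM and 0.367 to 1.58 CPM. In these 4 genes the groups overlapped in all comparisons.

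The antigen presentation genes supply peptides to MHC class I. Tap1, a subunit of the peptide transporter, measured 4.20, 2.94 and 3.48 CPM in R-HNK mice, 2.61, 1.73 and 1.65 CPM in injured saline mice and 3.45, 2.80 and 2.24 CPM in sham mice. R-HNK mice lay above injured saline mice without overlap, by a log2 fold change of 0.83 ± 0.25 (adjusted p = 0.464), the smallest adjusted p of any member in that comparison. The estimate of Tap1 ranged from 0.56 to 1.06 over all settings tried and was -0.51 ± 0.25 for injured saline against sham (adjusted p = 0.344). Psmb9, an immunoproteasome subunit and the head-to-head neighbour of Tap1, measured 1.54, 1.18 and 0.968 CPM in R-HNK mice, 0.748, 0.850 and 0.917 CPM in injured saline mice and 0.786, 1.64 and 1.76 CPM in sham mice. Its R-HNK values also lay above its injured saline values without overlap (0.55 ± 0.34, adjusted p = 0.726), and sham mice overlapped both. Psmb8, another such subunit, ran from 1.45 to 2.76 CPM.

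B2m measured 48.9, 48.2 and 42.0 CPM in R-HNK mice, 45.5, 49.9 and 51.8 CPM in injured saline mice and 42.6, 52.4 and 41.8 CPM in sham mice. The groups overlapped, with estimates of 0.11 ± 0.10 for injured saline against sham and -0.08 ± 0.10 for R-HNK against injured saline. The 95% intervals of B2m ran from -0.11 to 0.32 and from -0.29 to 0.13.

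Split by the letters of their promoters, members had these values. For injured saline against sham the median was -0.20 for the 15 members with the ISRE core (12 of 15 below 0) and -0.21 for the 14 without it (11 of 14 below 0). For R-HNK against injured saline the medians were 0.06 and -0.06, and for R-HNK against sham -0.18 and -0.14. These are descriptions without a test.

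Other genes of the pathway were taken from lists of 90 symbols, of which 77 passed the low-count filter. In the main edgeR fit 0 of 77 passed in any of the comparisons. For injured saline against sham, DESeq2 called 3 of them (3.9%, against 5.44% of all genes), with Ptpn6 lower and Traf3 and Psmb10 higher. In limma-voom 4 passed (5.19%, against 5.21%), these 3 and H2-T23, which was higher, and both tools called 0 in the other comparisons. Without sham replicate 1, edgeR called 4 as higher (5.19%, against 5.19% of all genes), namely Traf3, Herc6, H2-T23 and Psmb10. That setting compares the striatal-raised sham replicates 2 and 3 with injured saline libraries that were not raised. Injury and striatal content cannot be told apart in it. With the striatal score as a covariate, edgeR called 0 of 77. At an unadjusted p under 0.05 there were 7 higher and 7 lower for injured saline against sham (9.09% each way, against 7.52% and 9.07% of all genes), 3 higher and 2 lower for R-HNK against injured saline (3.9% and 2.6%, against 4.2% and 3.26%), and 0 for R-HNK against sham. The 10 interferon ligands were too low to test. Ifnb1, Ifna1, Ifng and 4 others had 0 counts in all 9 libraries, where 3 counts correspond to 0.0405 to 0.0545 CPM, and the 10 ligands together had 10 counts in all libraries.

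Of 9 receptors and kinases none passed. Ifnar1 ran from 43.1 to 47.1 CPM and Jak1 from 155 to 196 CPM. Ifngr2, a chain of the interferon gamma receptor, measured 40.6, 43.0 and 34.9 CPM in R-HNK mice, 38.9, 48.1 and 49.9 CPM in injured saline mice and 37.1, 37.4 and 36.1 CPM in sham mice. Every injured saline value lay above the sham values, at 0.31 ± 0.10 (adjusted p = 0.156). Il10rb, shared by receptors of interferon lambda and interleukin 10, measured 8.28, 8.51 and 7.13 CPM in R-HNK mice, 8.24, 8.35 and 8.52 CPM in injured saline mice and 7.21, 5.95 and 7.58 CPM in sham mice (0.28 ± 0.14 for injured saline against sham, adjusted p = 0.340).

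Among other regulators, Irf2, which competes with IRF1 for the same DNA, measured 24.1, 23.2 and 22.7 CPM in R-HNK mice, 24.6, 27.0 and 25.8 CPM in injured saline mice and 23.3, 21.3 and 22.6 CPM in sham mice. Stat3, the main target of the interleukin 6 family, measured 51.3, 41.9 and 54.5 CPM in R-HNK mice, 47.2, 43.1 and 45.8 CPM in injured saline mice and 49.8, 54.2 and 52.8 CPM in sham mice. Injured saline mice lay above sham mice for Irf2 (0.21 ± 0.08, adjusted p = 0.231) and below them for Stat3 (-0.20 ± 0.09, adjusted p = 0.294). Ptpn6, the phosphatase SHP-1 that dampens JAK signalling, measured 3.81, 3.96 and 4.23 CPM in R-HNK mice, 2.96, 3.35 and 3.14 CPM in injured saline mice and 4.96, 5.69 and 4.51 CPM in sham mice. Its 3 groups did not overlap, and its estimate for injured saline against sham, -0.68 ± 0.17, had an adjusted p of 0.0737. Irf2bp2, a corepressor of IRF2, measured 41.6, 43.6 and 42.6 CPM in R-HNK mice, 56.8, 54.4 and 48.2 CPM in injured saline mice and 40.8, 46.3 and 48.1 CPM in sham mice. Injured saline mice lay above both other groups, and the estimate for R-HNK against injured saline was -0.32 ± 0.08 (adjusted p = 0.355).

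Of the 13 sensing genes, 3 were higher (Traf3, Myd88 and Tbk1) and 2 were lower (Mavs and Aim2) in injured saline than in sham mice without overlap. Among all genes tested, 10.9% were higher and 10.9% lower without overlap in this comparison. Traf3, which links sensors to interferon induction, measured 81.0, 74.6 and 83.0 CPM in R-HNK mice, 89.4, 83.6 and 86.4 CPM in injured saline mice and 74.7, 71.6 and 69.8 CPM in sham mice (0.26 ± 0.07 for injured saline against sham, adjusted p = 0.0779). Myd88, the adaptor of Toll-like receptors, measured 4.82, 5.68 and 6.34 CPM in R-HNK mice, 5.81, 5.95 and 5.89 CPM in injured saline mice and 3.91, 4.63 and 4.98 CPM in sham mice (0.38 ± 0.16, adjusted p = 0.256). Neither passed in the main edgeR fit, while Traf3 passed in edgeR without sham replicate 1. Mavs, the adaptor of the RNA helicases, measured 7.08, 4.19 and 6.85 CPM in R-HNK mice, 5.20, 4.77 and 5.22 CPM in injured saline mice and 6.20, 5.71 and 6.53 CPM in sham mice (-0.28 ± 0.19 for injured saline against sham, adjusted p = 0.503). Aim2, a sensor of DNA in the cytosol, measured 1.81, 2.55 and 3.04 CPM in R-HNK mice, 2.35, 1.68 and 1.01 CPM in injured saline mice and 2.62, 2.82 and 2.76 CPM in sham mice (-0.70 ± 0.30, adjusted p = 0.262).

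Of 34 further interferon-stimulated genes 31 were tested, with medians of -0.21 for injured saline against sham, 0.09 for R-HNK against injured saline and -0.01 for R-HNK against sham. Oas2 measured 0.419, 0.449 and 0.468 CPM in R-HNK mice, 0.261, 0.517 and 0.295 CPM in injured saline mice and 0.838, 0.888 and 0.691 CPM in sham mice. Sham mice lay above both other groups, and the estimate for injured saline was -1.17 ± 0.41 (adjusted p = 0.181). Ifitm3, which blocks virus entry from endosomes, measured 7.58, 4.63 and 5.62 CPM in R-HNK mice, 3.76, 5.88 and 3.64 CPM in injured saline mice and 6.73, 7.97 and 6.37 CPM in sham mice, with an estimate of -0.67 ± 0.23 (adjusted p = 0.166) for injured saline against sham. Injured saline values of Ifitm3 lay below the sham values without overlap.

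Of the 10 class I partners, 7 had estimates below 0 for injured saline against sham, with a median of -0.10, and none passed in the main edgeR fit. The 2 with the smallest p for any difference among the groups, Psmb10 and H2-T23, were among the 3 above 0. Both were called higher by edgeR without sham replicate 1, a setting that leaves only striatal-raised sham libraries. Psmb10, the remaining immunoproteasome subunit, measured 28.0, 26.9 and 27.4 CPM in R-HNK mice, 35.0, 35.7 and 29.2 CPM in injured saline mice and 29.2, 22.7 and 23.4 CPM in sham mice. Its estimate for injured saline against sham was 0.41 ± 0.11 (adjusted p = 0.0914), beside -0.73 ± 0.34 for Psmb9 (adjusted p = 0.309), whose estimate ran from -1.01 to 0.10 over all settings tried. H2-T23, a class I molecule, measured 14.8, 15 and 18.2 CPM in R-HNK mice, 19.8, 22.4 and 18.7 CPM in injured saline mice and 20.8, 11.9 and 13.5 CPM in sham mice, and its groups overlapped (0.40 ± 0.18 for injured saline against sham, adjusted p = 0.298).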

How the data were processed

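Per the submitters' processing notes, reads were aligned to mm10 with HISAT2 2.0.5 and counted with featureCounts 1.5.0-p3. The name of the table points to StringTie, so the deposited values were treated like estimated counts (expected counts), though they are whole numbers and not normalized, and no rounding was needed. The sources used here do not state the strand or pair setting. The members and lists were chosen with earlier results of these data known. Genes passing filterByExpr (21765, 99.96% of counts) were scaled by TMM (factors 0.979 to 1.03) and fitted over all 9 libraries with edgeR 4.0.16 (robust quasi-likelihood, R 4.3.3; biological coefficient of variation 0.203). The threshold was an adjusted p of 0.05 (Benjamini-Hochberg, over all genes tested). CPM use the scaled totals, scores use log2 CPM with a prior count of 1, SEs come from the test statistic, and 3 mice against 3 cannot go below 0.1 in an exact permutation test of a single gene. Values per mouse are given for members called, for up to 2 members per role with the smallest p for any difference among the groups, and for Ifit1, Isg15, Irf7, Stat2, Irf9 and B2m, with the 2 smallest p per pathway list. Other members named with statistics, and Ifnar1, Jak1, Mavs, Aim2, Herc6, Cd4 and Neurod6, were picked after their values were seen. Intervals are at 95%, and limits from 0 counts cover counting error only. DESeq2 1.42.0, limma-voom 3.58.1 (with quality weights for the libraries throughout) and other settings were run beside it. Deviations of libraries with the same replicate number had correlations of -0.10 to 0.08, which gave no sign that the numbers pair the mice. Such correlations also carry other differences between libraries, so they cannot exclude pairing. Replicates differed by more than sampling noise. Gene models are from GENCODE (GRCm38), transcripts were compared with blastn 2.17.0, promoters are from RefSeq (GRCm38.p6), and proteins were not used here. The procedure was tested on simulated data.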

Additional observations from a re-analysis of the deposited data

How the results depend on the processing

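No member passed in any comparison under any setting tried: relative log expression or upper quartile scaling, no filter, a stricter filter that kept genes with a mean above 0 on the log2 CPM scale (33 members), DESeq2, limma-voom, the replicate block, the 2 compared groups alone, the striatal covariate, dropping the 4 striatal-raised libraries, and leaving out each library in turn. DESeq2 and the fit of the 2 groups alone gave no adjusted p for Zbp1 in injured saline against sham. Members at an unadjusted p under 0.05 numbered 1 to 5 for injured saline against sham, 1 to 6 for R-HNK against injured saline and 0 to 3 for R-HNK against sham. None of the 20 members described per mouse crossed the threshold, and the signs of 8, 12 and 10 of them turned under at least 1 setting in these comparisons, Bst2 in R-HNK against sham among them (0.05 without sham replicate 2). The median of the members ran from -0.29 to -0.12, from 0.04 to 0.17 and from -0.20 to -0.01 when 1 library was left out, and was -0.16 for R-HNK against injured saline without the 4 striatal-raised libraries.

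The calls over all genes, which set the background, moved more. For injured saline against sham (233 genes) they numbered 370 with no filter, 1185 in DESeq2, 1135 in limma-voom, 85 when adjusted for the striatal score, 86 with the 4 libraries dropped, and 60 (without injured saline replicate 3) to 1170 (without sham replicate 1) when 1 library was left out. For R-HNK against injured saline (26 genes) they numbered 140 in DESeq2, 49 in limma-voom, 53 in the 2 groups alone and 7 (without injured saline replicate 3) to 56 (without sham replicate 1). For R-HNK against sham (1 gene) they numbered 0 with the stricter filter and in limma-voom, 10 in DESeq2, 25 without the 4 libraries and 1 to 11 (without sham replicate 1). With the replicate block they numbered 162, 16 and 2, and the medians of the members were -0.22, 0.05 and -0.11. Without sham replicate 1 the remaining sham libraries were all striatal-raised and the injured saline libraries were not. The cause of these shifts was not tested. Intervals lay within 2-fold for 22 to 24 of 38 members. In each comparison 6 members (Usp18, Zbp1, Oas1a, Mx1, Rsad2 and Ifi44) had an interval half-width of at least 1 on the log2 scale, so that an estimate of 2-fold would not have excluded 0 for them. Low counts and the spread between mice both enter these widths and were not parted.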
